A study of Mus musculus with 12 samples.

Results

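Histone-modifying enzymes of 4 classes were followed in hippocampal slices after chemical long-term potentiation (LTP): 11 histone deacetylases, 6 lysine acetyltransferases, 12 lysine demethylases and 10 lysine methyltransferases. The 39 genes were taken by name from a list of such enzymes, out of 41091 gene IDs in each count table. This list and the other gene lists below were chosen with earlier results of these data known. Shares called among them therefore describe the lists and are no test against all genes. All 39 had counts and were tested in each of the 5 comparisons below. The slices came from wild-type C57BL/6 mice of 2 to 3 months, and the dentate gyrus had been cut away. LTP slices received 50 uM forskolin, which activates adenylyl cyclase, for 5 min and then forskolin with 30 mM KCl and 10 mM calcium, 10 min in all. Control slices received 0.2% DMSO alone for 10 min. RNA was taken 1 hr or 3 hr later, which gave 4 groups (1 hr control, 1 hr LTP, 3 hr control, 3 hr LTP) of 3 libraries each, and at each time point an animal gave both an LTP and a control library. According to the study's methods, libraries were made from RNA samples in which induction of Arc had been seen by RT-qPCR, so induction of Arc was a condition of entry.

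Acetyltransferases add acetyl groups to lysines of the histone tails, which loosens chromatin and recruits bromodomain proteins, and deacetylases take them off. Methyltransferases and demethylases write and erase lysine methylation, whose effect depends on the residue: methylation of H3K4 marks promoters and enhancers in use, whereas methylation of H3K9 or H3K27 is linked to silencing. In hippocampal neurons these enzymes are known as regulators of the transcription that long-lasting plasticity and memory need.

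Library totals ran from 37118382 to 50815001 counts. Levels are given as CPM (counts scaled to library size with TMM factors) as mean ± SD, and 3 counts corresponded to at most 0.0808 CPM, far below every member. A gene was called where the edgeR quasi-likelihood test gave a Benjamini-Hochberg adjusted p under 0.1 together with a fold change over 1.2. The study set 1 hr control replicate 2 aside as an outlier, so it was left out of the tests and of the 1 hr control means (n = 2, against n = 3 in the other groups), and its values are given apart where those of the fitted 1 hr controls are listed. The activity-induced gene Arc was at 141 ± 14.3 CPM in 1 hr controls (221 CPM in the library set aside) and 555 ± 32.8 CPM in 1 hr LTP slices, and at 213 ± 6.25 and 519 ± 19.5 CPM at 3 hr. Of 38 markers of hippocampal cell types, all at 1 CPM or more, 0 were called between LTP and control slices at either time point. Of all genes, 0.789% were called at 1 hr and 6.6% at 3 hr. The dentate granule cell markers Prox1, C1ql2, Dsp and Tdo2 still summed to between 120.0 and 221 CPM, although that region had been trimmed.

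All 39 enzymes were expressed in these slices. Lengths are those of all annotated exons, UTRs included, whereas the study describes an expression analysis limited to coding reads, and it is not stated whether the deposited counts were so limited. Levels per kb, and their order, would shift if they were. Per kilobase of exon, the highest median over the 11 fitted libraries was that of Hdac11, the single class IV deacetylase, at 37.01 CPM per kb, with libraries between 33.6 and 39.6. Next came Ehmt2 (G9a, which methylates H3K9) at 25.1 and Hdac2, a class I deacetylase known to restrain memory formation, at 20.3 CPM per kb. The ranges of these last 2 genes overlapped, from 19.0 to 30.9 and from 17.1 to 26.4, while Hdac11 lay above both in every library. The lowest were Hdac7 at 1.02, Ezh2 (the H3K27 methyltransferase of PRC2) at 1.99 and Hdac10 at 2.47 CPM per kb. The 5 KMT2 (MLL) genes, most of which encode H3K4 methyltransferases, stood between 2.91 for Kmt2b and 8.34 for Kmt2e. Kdm6b, which demethylates H3K27, was low at 3.17, with libraries spread from 1.82 to 6.73 CPM per kb.

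The first question was which of these enzymes changed 1 hr post LTP induction. Only Kdm6b was called, and it rose. Its control libraries held 13.4 and 12.7 CPM, the library set aside 16.5 CPM, and the LTP libraries 22.1, 22.1 and 21 CPM. Every LTP library lay above every control library, the outlier included. The mean went from 13.0 ± 0.481 to 21.7 ± 0.633 CPM, a log2 fold change of 0.75 with an SE of 0.09 (edgeR adjusted p = 0.000681). Kdm6b (GRCm38, chr11:69398508-69413675, minus strand) shares 4.11% of its exonic bases with the antisense gene Kdm6bos, and the strand setting of the counting is not stated in the sources used here. In a joint model of the 4 groups, Kdm6b had a log2 fold change of 0.74 at 1 hr with an edgeR adjusted p of 0.184, so the call rested on fitting this time point on its own. As these are bulk slices, fewer cells of a type and less RNA per cell cannot be told apart here or in any later comparison.

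The 1 member called, 2.56% of 39, stood against 0.789% of the 17736 genes tested at 1 hr. The members had a median log2 fold change of 0.03, against 0.00 for all genes. Of all 17736 genes, 1190 had an unadjusted p under 0.05 in edgeR. The 5 KMT2 genes all had positive estimates at 1 hr, from 0.12 for Kmt2b to 0.28 for Kmt2a, and 4 of them had an unadjusted p under 0.05, yet none passed the adjusted threshold (lowest edgeR adjusted p = 0.419, for Kmt2a). By DESeq2 and by limma-voom, 0 of the 5 were called as well, but if LTP replicate 3 was left out, edgeR called 3 members, with Kmt2a and Kmt2d beside Kdm6b (7.69% of the members, against 1.97% of all genes in that fit). Kmt2a had 119.8 and 105 CPM in the fitted controls, 121 CPM in the library set aside and 144, 142 and 119 CPM in the LTP libraries, so the groups overlapped. Kdm7a, a demethylase of H3K9 and H3K27, did not overlap, with 175 and 176 CPM in the fitted controls, 154.5 CPM in the library set aside and 209, 201 and 197 CPM in LTP libraries, but it was not called either (log2 fold change 0.21, edgeR adjusted p = 0.335). Of the 39 members, 5 (12.8%) had all LTP libraries above the fitted controls, close to the 10.6% of all genes. On the lower side no member was called or had an unadjusted p under 0.05 in edgeR, DESeq2 or limma-voom. The smallest p-values there were those of Hdac10 (log2 fold change -0.25), Kat2a, the GCN5 acetyltransferase (-0.14), and Ehmt2 (-0.08).

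**Figure D1:**
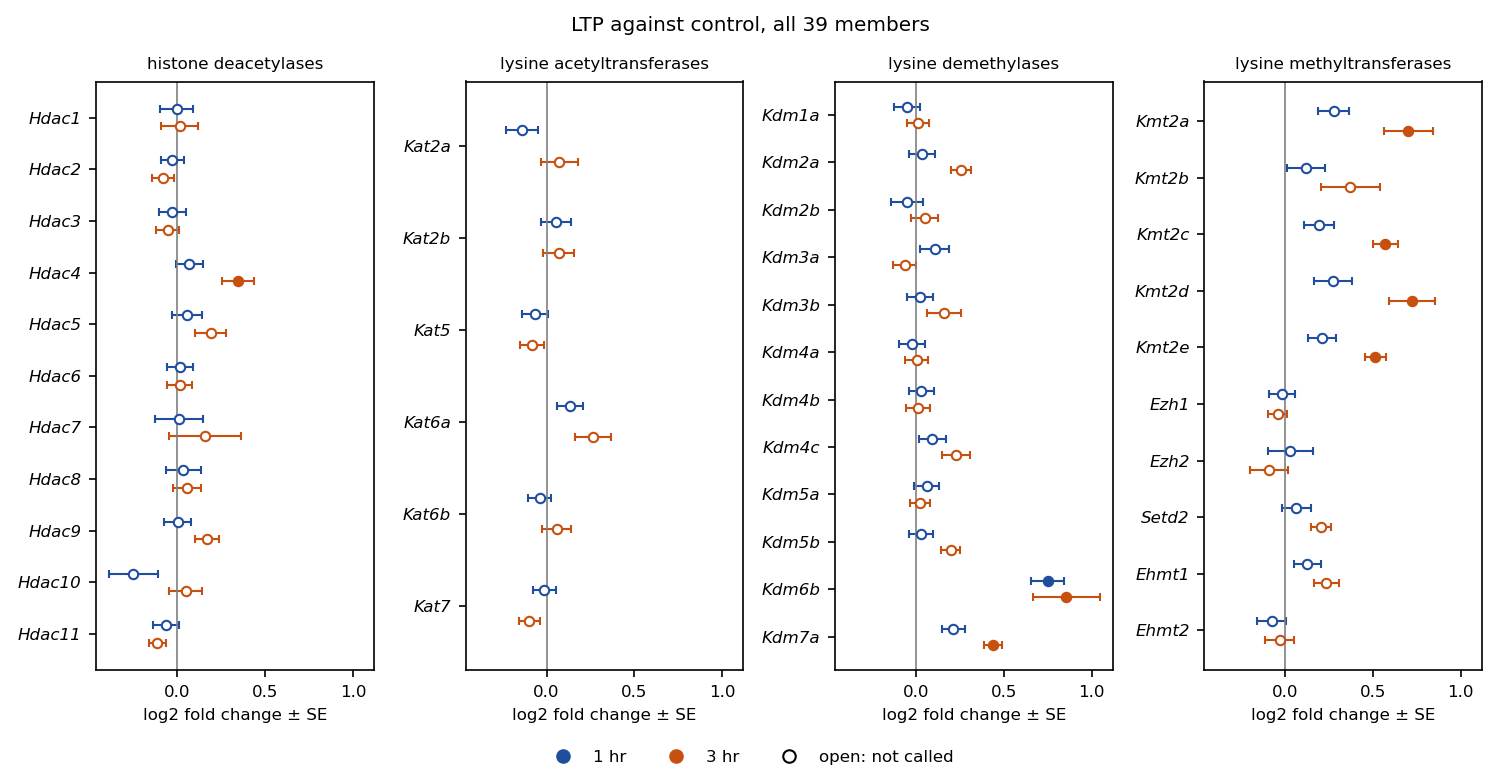
Log2 fold change with its standard error (x axis) of each of the 39 members, by enzyme class, for LTP against control slices at 1 hr (blue) and 3 hr (orange), with filled points for called genes. Kdm6b is filled at both times, and the other filled points are Hdac4, Kdm7a, Kmt2a, Kmt2c, Kmt2d and Kmt2e at 3 hr.

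At 3 hr post LTP induction, 7 of the 39 members were called and all 7 were higher in LTP slices. They were 4 of the 5 KMT2 genes (Kmt2a, Kmt2c, Kmt2d and Kmt2e), the demethylases Kdm6b and Kdm7a, and the deacetylase Hdac4. The rises ran from 0.34 to 0.86 on the log2 scale. The share called was 17.9% of the members, against 6.6% of the 17508 genes tested in either direction and 5.07% called higher. As the list was chosen with earlier results known, neither this share nor that of groups without overlap, given below, is a test. By class, 4 of 10 methyltransferases, 2 of 12 demethylases, 1 of 11 deacetylases and 0 of 6 acetyltransferases were called. DESeq2 and limma-voom each also called 7 members, all higher, where they called 7.6% and 6.51% of all genes. No member was called lower or had an unadjusted p under 0.05 in that direction by these 3 tools, while with offsets for GC content and length 4 members had such a p in edgeR and 0 were called lower. The count depended on single libraries: 3 members (Kdm7a, Kmt2c and Kmt2e) were called if control replicate 1, control replicate 2 or LTP replicate 1 was left out, and 12 if LTP replicate 2 was. The share called among all genes moved in these fits too, to 1.76%, 1.28% and 1.86% in the first 3 and to 12.2% without LTP replicate 2.

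The proteins of Kmt2a to Kmt2d are large catalytic subunits of MLL complexes and place methyl groups on H3K4. Kmt2a and Kmt2b bind mainly promoters, and Kmt2c and Kmt2d write monomethylation at enhancers. Kmt2c (chr5:25271798-25498783, minus strand) held 141, 132 and 143 CPM in 3 hr control libraries and 211, 186 and 214 CPM in 3 hr LTP libraries. It went from 138 ± 5.53 to 204 ± 15.3 CPM, with no overlap (log2 fold change 0.57, SE 0.07, edgeR adjusted p = 0.00544). Kmt2d (chr15:98831669-98871204, minus strand) held 80.3, 75.5 and 87.9 CPM in the controls and 139, 105 and 154 CPM after LTP. Its mean went from 81.2 ± 6.24 to 133 ± 25.1 CPM, again with no overlap (log2 fold change 0.72, SE 0.13, edgeR adjusted p = 0.0234).

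Kmt2a (chr9:44803355-44881296, minus strand), the founding MLL gene, held 118, 112 and 129 CPM in the controls and 201, 149 and 228 CPM in the LTP libraries. The mean went from 119 ± 8.97 to 193 ± 40.4 CPM without overlap (log2 fold change 0.70, SE 0.14, edgeR adjusted p = 0.0323). Its near relative Kmt2b (chr7:30568858-30588726, minus strand) held 28.9, 27.9 and 37.7 CPM in the controls and 40.6, 31.6 and 49.0 CPM after LTP. Here the groups overlapped, and Kmt2b was not called (log2 fold change 0.37, SE 0.17, edgeR adjusted p = 0.259). With the animal as a replicate block, and with offsets for GC content and length, all 5 KMT2 genes were called, in fits that called 9.49% and 8.63% of all genes. Kmt2e (chr5:23434441-23504235, plus strand), a divergent member of the family not known for strong methyltransferase activity, showed little spread within groups, with 63.6, 62.2 and 63.6 CPM in the controls and 89.8, 84.9 and 93.5 CPM after LTP. Its log2 fold change was 0.51 with an SE of 0.06 (edgeR adjusted p = 0.00428), and it shares 9.31% of its exonic bases with Srpk2 on the opposite strand.

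In the 3 hr LTP group, replicate 3 was the highest and replicate 2 the lowest library for each of the 5 KMT2 genes. The pyramidal neuron markers Camk2a, Slc17a7, Neurod6, Wfs1, Fibcd1 and Grik4 summed to 3424, 2706 and 4118 CPM in LTP replicates 1, 2 and 3, against 3020, 3102 and 3135 CPM in the controls. Astrocyte markers followed the same order, with sums of 4017, 3592 and 4622 CPM in the LTP replicates. Oligodendrocyte markers did not, with 5754, 7054 and 6554 CPM. The part of these marker levels in the KMT2 values was not tested. All 3 animals had a higher LTP than control value of each KMT2 gene at 3 hr, with log2 ratios from 0.41 to 0.82 for Kmt2a and from 0.49 to 0.59 for Kmt2c.

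The called demethylases act on repressive marks. Kdm6b (JMJD3) removes methyl groups from H3K27 and is induced by many stimuli. It held 17.5, 19.1 and 22.2 CPM in the 3 hr controls and 32.7, 26.3 and 46.8 CPM in the LTP libraries, with no overlap but a wide LTP group (log2 fold change 0.86, SE 0.19, edgeR adjusted p = 0.0478). Kdm7a (chr6:39136623-39206789, minus strand) held 171, 168 and 165 CPM in the controls and 229, 219.8 and 228 CPM after LTP. Its groups lay far apart for their spread (168 ± 2.9 and 226 ± 5.03 CPM, log2 fold change 0.44, SE 0.05, edgeR adjusted p = 0.00467). Kdm2a, an H3K36 demethylase, had an edgeR adjusted p of 0.0457 and groups that did not overlap, but its fold of 1.195 was under the minimum. Kdm5b, which demethylates H3K4, and Setd2, which trimethylates H3K36, likewise passed the adjusted p (0.0848 and 0.0913 in edgeR) with folds of 1.15.

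Among the deacetylases, Hdac4 was called. This class IIa enzyme shuttles between cytoplasm and nucleus with neuronal activity. Hdac4 (chr1:91928779-92195699, minus strand) held 84.6, 92.5 and 88.0 CPM in the 3 hr controls and 108, 98.9 and 126 CPM after LTP. The groups did not overlap, and the log2 fold change was 0.34 with an SE of 0.09 (edgeR adjusted p = 0.076). Gm26720, on the opposite strand, covers 22.4% of its exonic bases, and reads of the 2 genes cannot be told apart if strand was not used. The other class IIa genes Hdac5, Hdac7 and Hdac9 had log2 fold changes of 0.19, 0.16 and 0.17 and were not called. The class I genes Hdac1, Hdac2 and Hdac3 had estimates of 0.01, -0.08 and -0.05.

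**Figure D2:**
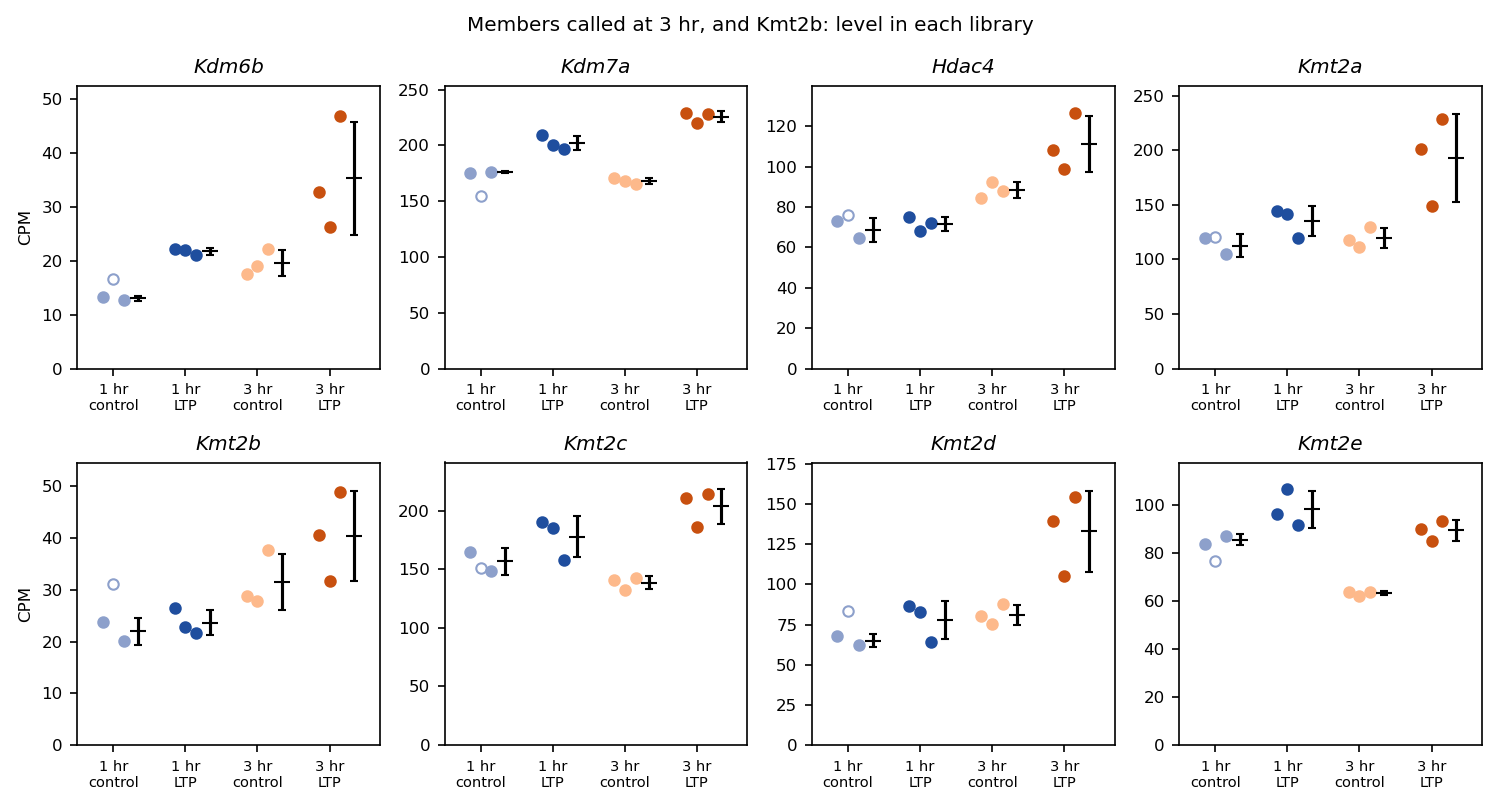
Level in CPM (y axis, from 0) of the 7 members called at 3 hr and of Kmt2b in every library, by group, with the group mean and SD as a black bar beside the points and the library set aside as an open circle. In the 3 hr LTP group, all points of the 7 called genes lie above the 3 hr controls, while those of Kmt2b overlap with them.

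Of the remaining members, Kat6a and the H3K9 enzymes Ehmt1 and Kdm4c had the highest estimates, 0.27, 0.23 and 0.23, and none of these was called. Ehmt1 (GLP), a methyltransferase, had groups that did not overlap (unadjusted p = 0.0101, edgeR adjusted p = 0.114), while those of the demethylase Kdm4c overlapped (edgeR adjusted p = 0.153). Over all 39, 30 estimates were positive and 9 negative at 3 hr, with a median of 0.07 against 0.00 over all genes. All LTP libraries lay above all controls for 12 members (30.8%), against 12.9% of all genes, and below them for 3 (Hdac11, Kat7 and Ezh1), 7.69% of the members against 14.1% of all genes. The smallest p-values on the lower side were those of Hdac11 (log2 fold change -0.11), Kat7 (-0.10), which acetylates H3 and H4 in the HBO1 complex, and Hdac2 (-0.08). The 6 acetyltransferases lay between -0.10 and 0.27, the highest being Kat6a (edgeR adjusted p = 0.194). PRC2's catalytic subunits Ezh1 and Ezh2 had estimates of -0.04 and -0.09.

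The rises called at 3 hr fell mostly on genes with long exonic sequence, with the same doubt about which bases were counted. Of the 14 members with at least 10 kb of exon, 6 were called (42.9%), and of the 25 shorter ones 1 was, Kdm6b with 6.95 kb. Over all genes the same division held, since 221 of 1468 genes of at least 10 kb (15.1%) were called at 3 hr, all of them higher, against 5.42% to 6.38% in the shorter classes. Kmt2c and Kmt2d have 20.3 and 19.9 kb of exon. With offsets for GC content and exonic length in the fit, 7 members were called again, and 8.63% of all genes were. Hdac4 dropped out with a log2 fold change of 0.21, Kmt2b came in, and Kmt2a, Kmt2c, Kmt2d, Kmt2e, Kdm6b and Kdm7a remained.

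**Figure D3:**
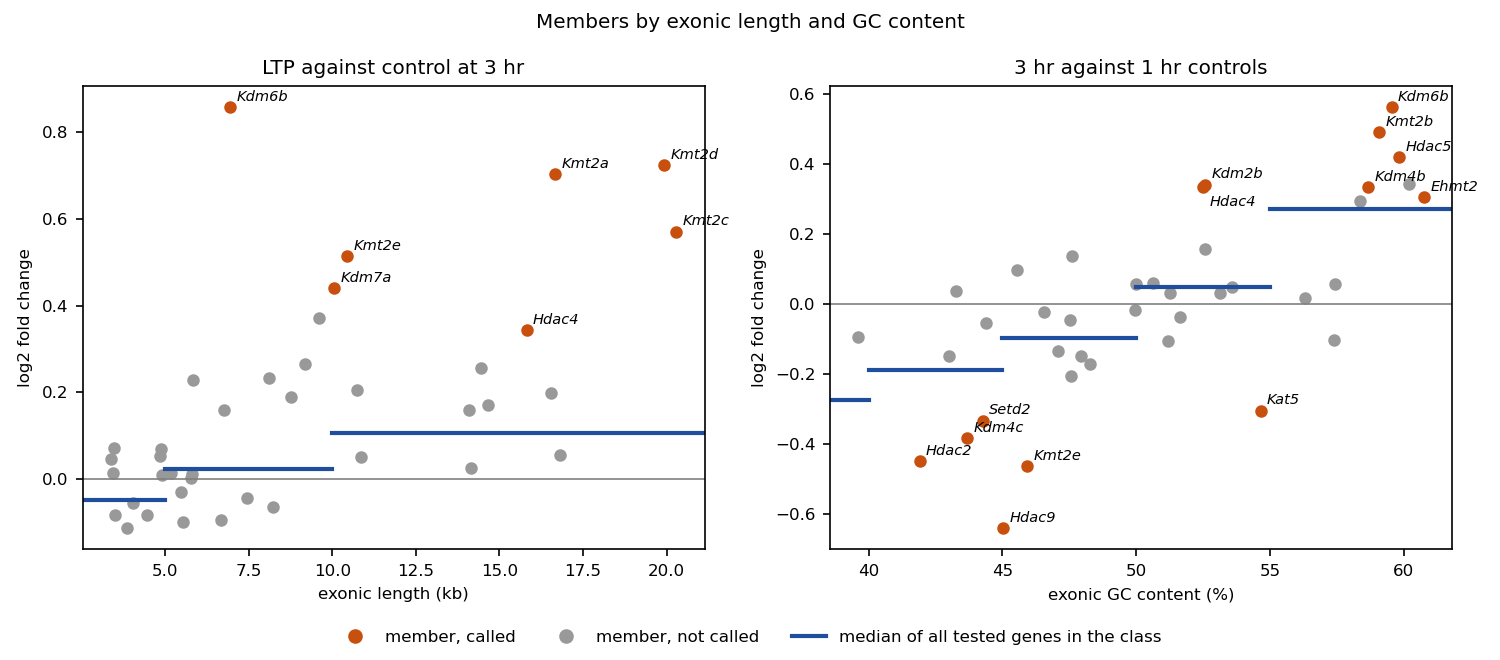
Log2 fold change of the 39 members (y axes), for LTP against control at 3 hr by exonic length in kb (left) and for 3 hr against 1 hr controls by exonic GC content in percent, that of the longest transcript (right), with called members in orange and named, and blue lines for the median of all tested genes in each length or GC class. On the left, 6 of the 7 called members lie at 10 kb or more. On the right, the called members of low GC content are lower and those of high GC content higher, except Kat5, which is lower at 54.7%.

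Whether the LTP effects at 3 hr and 1 hr differed was tested as an interaction in the model of 4 groups, with no fold minimum. No member was called by edgeR, DESeq2 or limma-voom, and 8 members had an unadjusted p under 0.05 in edgeR, all with a larger effect at 3 hr. Over all 18584 genes, 0.0592% were called, and 1225 had an unadjusted p under 0.05 in edgeR. The estimates with the smallest p were those of Kmt2c (0.39, SE 0.12, edgeR adjusted p = 0.517), Kmt2e (0.31) and Kdm7a (0.23). Kmt2d and Kmt2a had 0.46 and 0.43, Kdm2a 0.23, Kdm5b 0.18 and Hdac4 0.28. For Kdm6b the estimate was 0.12. A stronger effect at 3 hr than at 1 hr was therefore not established for any member, although the calls of 1 and 7 members differ.

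In the other genes of the histone acetylation and methylation machinery, 106 of which were tested, 0 were called at 1 hr by edgeR, DESeq2 or limma-voom (7 with an unadjusted p under 0.05 in edgeR), where these tools called 0.789%, 1.02% and 0.688% of all genes. At 3 hr edgeR called 12 (11.3%, against 6.6% of all genes), 11 of them higher (5.07% of all genes). DESeq2 called 15 higher and 2 lower, limma-voom 8 and 1, and edgeR with the animal as a replicate block 16 and 2, where these fits called 7.6%, 6.51% and 9.49% of all genes. The related acetyltransferases Ep300 and Crebbp, coactivators of CREB, were among the 11. Ep300 held 42.5, 40.8 and 47.9 CPM in the 3 hr controls and 65.3, 62.0 and 71.9 CPM after LTP, with no overlap (log2 fold change 0.62, edgeR adjusted p = 0.00837). Crebbp held 110.3, 111 and 127 CPM and 168, 128 and 186 CPM, so that its lowest LTP library stood barely above the highest control (log2 fold change 0.48, edgeR adjusted p = 0.0771). Rcor1, a scaffold of a deacetylase corepressor complex, rose by 0.33. Trrap and Ep400 of the acetyltransferase complexes both rose by 0.39. The demethylase genes Jmjd1c and Phf8 rose by 0.39 and 0.38, and Jarid2 of PRC2 and the methyltransferase Nsd3 by 0.32 and 0.29. The calls of Jarid2 and Nsd3 were each lost in 9 of 16 alternatives, limma-voom among them. That of Trrap was lost in 6, that of Crebbp in 5, all of these with a library left out, and those of Rcor1 and Ep400 in 4. Phf8 lost its call in 3 and Jmjd1c in 2, while Ep300 kept its call in all 16. With offsets for GC content and length, Jmjd1c (0.22), Trrap (0.22), Jarid2 (0.24) and Nsd3 (0.13) were not called. Prmt6, an arginine methyltransferase, was the 1 gene that fell (log2 fold change -0.34), and its call was lost in 4 of the 16 alternatives. C130013H08Rik covers 23.4% of the exonic bases of Prmt6 on the opposite strand.

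Noncatalytic subunits of the MLL complexes were looked at beside the KMT2 genes. Wdr5, Rbbp5, Ash2l and Dpy30 form the core shared by the MLL complexes, and their log2 fold changes at 3 hr were -0.04, -0.06, -0.03 and -0.11. Over a list of 9 noncatalytic subunits, which also holds ones particular to some of the complexes such as Men1 and Psip1, 0 were called by edgeR (2 with an unadjusted p under 0.05), with a median of -0.04. At the 6.6% called among all genes, a list of 9 can hold 0 calls, so nothing is read from this count. Setd1a and Setd1b, the catalytic subunits of related complexes, had estimates of 0.21 and 0.59 and were not called either (edgeR adjusted p = 0.556 and 0.161). The difference between the catalytic and the other subunits was not tested.

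Promoters of the members were read for a full and a shorter CREB element, an AP-1 element and a GC box. RefSeq windows of GRCm38.p6, from 250 bases before to 50 after the start, were matched by symbol for 28 of the 39 members and for 5 of the 7 called at 3 hr, without Kdm6b and Kmt2e. On either strand, the full CREB element TGACGTCA was in 0 of these 28 windows and in 2.03% of 27025 genes. These 27025 are all genes with a window, expressed in these slices or not, while all members were expressed. The shares of members and of all genes are therefore from unlike sets. The shorter element TGACG, which the full one contains, was in 10 of the 28 (35.7%) and in 23.05% of all genes. Among the 5 members called at 3 hr with a window, it was in Hdac4 alone. The AP-1 element TGANTCA was in 5 of the 28 (17.9%, against 8.97% of all genes) and in none of the 5. A GC box, GGGCGG, was in 19 of the 28 (67.9%, against 38.2%) and in all 5 of these members called at 3 hr. The Hdac4 stretches are shown because they hold the only matches to a CREB element among the 5 members called at 3 hr whose windows were read. They are given 5′ to 3′ on the minus strand of chr1, with the TGACG letters in capitals. The stretches lie at chr1:92180427-92180456, chr1:92180375-92180404 and chr1:92180310-92180339, and each distance is that of the first capital letter from the RefSeq start. This start lies within the span of Hdac4 in the annotation used for the counts, downstream of that annotation's first base.
Hdac4, capitals from 103 bases before the start: ccgagccgtaatTGACGctttcttcattag
Hdac4, capitals from 51 bases before the start: cacggggggaggTGACGcaaagccgttgta
Hdac4, capitals from 15 bases after the start: ggctggggcgccTGACGggcgtagggcgcg
A match of letters describes the window only, and binding was not measured.

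The time points were also compared directly, first between the controls. Here time and animal cannot be told apart, since each time point was read as having animals of its own. Of the 39 members, 13 were called (33.3%), close to the 32.8% called among all genes. Higher at 3 hr were Kdm6b (log2 difference 0.56), Kmt2b (0.49), Hdac5 (0.42), Kdm2b (0.34), Hdac4 (0.34), Kdm4b (0.33) and Ehmt2 (0.31). Lower were Hdac9 (-0.64), Kmt2e (-0.47), Hdac2 (-0.45), Kdm4c (-0.38), Setd2 (-0.33) and Kat5 (-0.31). With offsets for GC content and exonic length, none of the 7 higher ones was called. The differences of Kdm4b and Ehmt2 were then -0.001134 and -0.12, while Hdac4 (0.26) and Kdm2b (0.24) still passed the threshold on the adjusted p but not the fold minimum.

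Hdac9, a class IIa deacetylase (chr12:34047580-34917095, minus strand), had the smallest p of the members. It held 56.9 and 58.1 CPM in the fitted 1 hr controls, 48.6 CPM in the library set aside and 35.8, 38.7 and 38.3 CPM in the 3 hr controls (edgeR adjusted p = 8.39e-05). Hdac2 (chr10:36974544-37001889, plus strand) held 115 and 118 CPM, then 97.9 CPM in the library set aside, and 87.4, 90.8 and 83.2 CPM at 3 hr (edgeR adjusted p = 0.000283). For both genes the library set aside lay between the 2 groups. Hdac5 went the other way, from 85.1 and 85.2 CPM, with 107 CPM in the library set aside, to 108, 111 and 129.8 CPM (edgeR adjusted p = 0.00802). Kmt2e was lower in 3 hr than in 1 hr controls, 63.1 ± 0.79 against 85.4 ± 2.29 CPM (76.5 CPM in the library set aside), and in 3 hr LTP slices it stood at 89.4 ± 4.28 CPM.

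These control differences moved with base composition. GC content was that of the longest annotated transcript of each gene. It ran from 52.5% to 60.8% in the 7 members called higher, with a median of 59.1%. In the 6 called lower it ran from 41.9% to 54.7%, with a median of 44.7%. Over all genes of at least 55% GC, 37.6% were called higher and 3.87% lower, with a median of 0.27, and below 40% GC the shares were 2.68% and 40.2%, with a median of -0.27. With the offsets, 5 members were called (12.8%, against 25.2% of all genes, where 2177 were higher and 2502 lower), all of them lower: Hdac2 (-0.29), Hdac9 (-0.53), Hdac11 (-0.37), Kat5 (-0.47) and Kmt2e (-0.38). Of the 38 cell markers, 5 were called higher and 11 lower, where 2987 of all 18584 genes were called higher and 3115 lower (32.8% in all). The microglial markers summed to 156 and 157 CPM in the fitted 1 hr controls, to 142 CPM in the library set aside and to between 99.6 and 112 CPM at 3 hr, and the oligodendrocyte markers to 4228 and 5150 CPM, to 4483 CPM and to between 5788 and 7117 CPM. The part of the cell markers in these differences was not tested. If 1 hr control replicate 3 was left out, 8 members were called (20.5%), near the 21.9% of all genes in that fit.

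Between 3 hr and 1 hr LTP slices, 16 members were called (41.0%, against 35.9% of all genes), 13 higher and 3 lower. The 13 included the 7 that were higher between controls, together with Kmt2a (0.49), Kmt2d (0.75), Kdm5b (0.31), Hdac7 (0.50), Hdac10 (0.32) and Kat2a (0.28). Hdac2 (-0.49), Hdac9 (-0.47) and Kat5 (-0.32) were lower. With offsets for GC content and length, 7 members were called higher and 4 lower (28.2% in all, against 27.2% of all genes). Hdac5 (0.17), Hdac7 (0.09), Hdac10 (0.14), Kat2a (0.05), Kdm4b (0.01) and Ehmt2 (-0.04) then lost their calls. Of the 38 cell markers, 5 were called higher and 9 lower, where 3460 of all 18584 genes were called higher and 3216 lower. The part of the cell markers in these differences was not tested. Kmt2e, lower between the controls, had an estimate of -0.15 here. Whether the 2 time differences differ from each other is the interaction given above, for which no member was called. Other machinery genes with the smallest p between the controls were Riox1 (0.82) and Rbbp4 (0.31) on the higher side and Psip1 (-0.71) and Ncor1 (-0.49) on the lower, among 20 of 106 called (18.9%, against 32.8% of all genes).

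**Figure D4:**
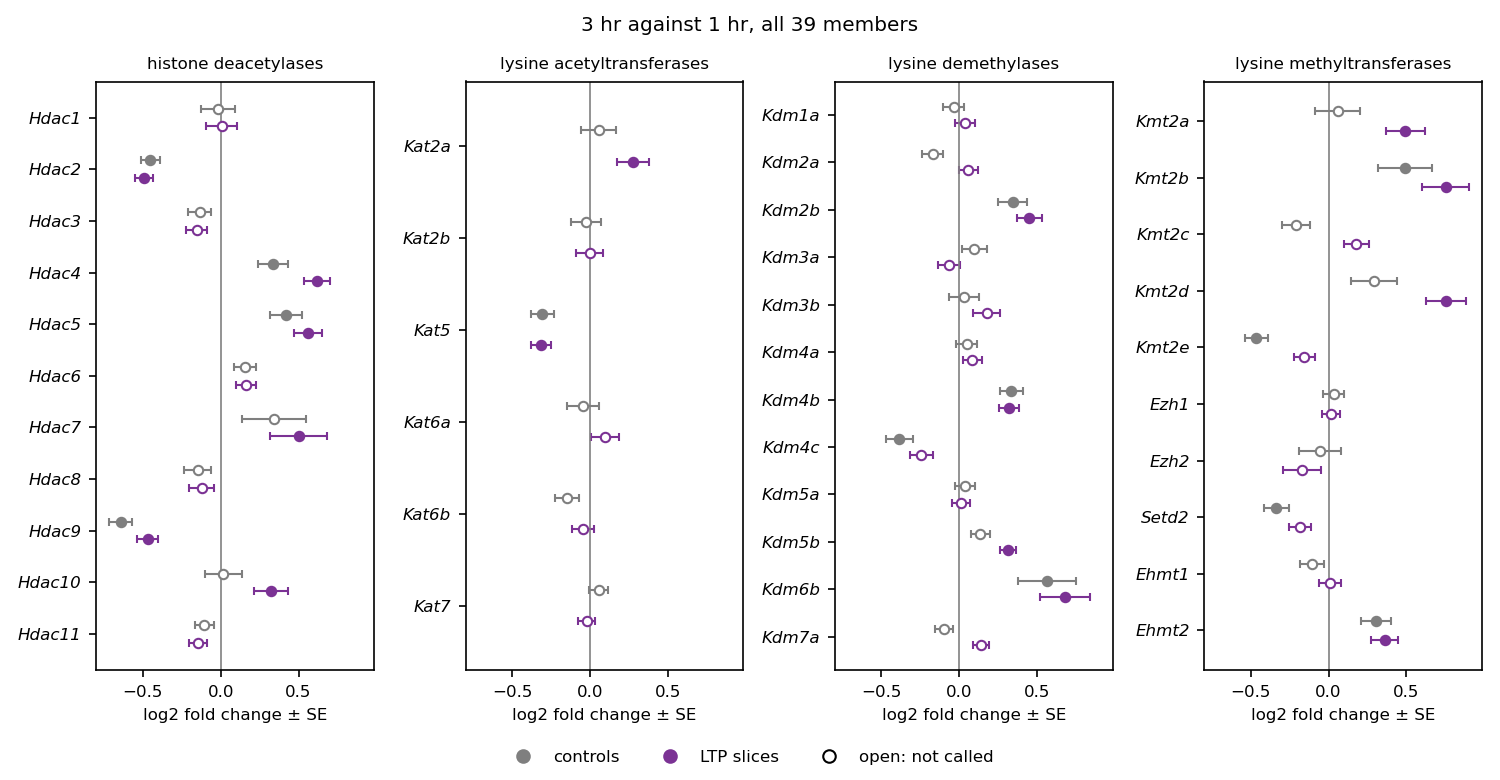
Log2 fold change with its standard error (x axis) of each member for 3 hr against 1 hr, in control slices (grey) and in LTP slices (purple), by enzyme class, with filled points for called genes. Hdac2, Hdac9 and Kat5 are filled on the lower side in both, and Kmt2a and Kmt2d are filled on the higher side in LTP slices.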

How the data were processed

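RNA-seq counts of 12 hippocampal slice libraries were analysed. The deposited values are raw counts per gene in 2 tables, 1 hr and 3 hr. By the study's methods, the authors depleted ribosomal RNA, made stranded total RNA libraries, aligned paired 100-base reads with STAR to GRCm38/mm10 and counted reads with Bioconductor packages. The submitters' processing notes name mm10 and DESeq2. The strand setting and gene models of the counting are not given in the sources used here, which leaves overlapping genes uncertain. The study limits its expression analysis to coding reads, and whether the deposited counts follow this is not stated. Exonic lengths here include UTRs, and GC content is that of the longest annotated transcript of a gene. Of 41091 gene IDs, 40217 matched GENCODE M21.

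Each LTP comparison was fitted per time point (5 libraries at 1 hr, 6 at 3 hr), and the interaction and time differences in 1 model of 11 libraries, with edgeR 4.0.16 in R 4.3.3 (filterByExpr, TMM, quasi-likelihood F test) over all genes, with thresholds of 0.1 for the adjusted p and 1.2 for the fold change. The code was tested on simulated data. Ratios within an animal were taken on log2 values with 0.1 CPM added, and that of animal 2 at 1 hr used the library set aside.

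The labels pair LTP and control libraries of an animal within a time point. Over 18240 genes, the correlation of paired deviations was -0.017, -0.134 and 0.074 at 1 hr and 0.03, -0.038 and 0.194 at 3 hr for animals 1, 2 and 3. Animals were treated as distinct between 1 hr and 3 hr.

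The members and gene lists were chosen with earlier results of these data known. Named were members called for LTP or in the interaction, the 3 smallest p-values in each direction at 1 hr and at 3 hr and the 4 smallest in each direction between controls, and, of the other machinery genes, those called for LTP and the 2 smallest p-values in each direction between controls. Genes named beyond this, among them Kmt2b at 3 hr, the deacetylases not called and the noncatalytic MLL subunits, were named after their values were seen, to complete a family. Alternatives were DESeq2 1.42.0, limma-voom (limma 3.58.1), other scalings and filters, offsets for GC content and exonic length, a replicate block, and leaving out each library. Prmt1 was not analysed here, and some called machinery genes are not reported here.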

Additional observations from a re-analysis of the deposited data

How the results depend on the processing

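At 1 hr, the count of called members went from 1 to 3 with no filter beyond 1 count and to 0 in 1 model of the 4 groups, and lay between 1 and 3 when single libraries were left out (3 without LTP replicate 3, where Kmt2a and Kmt2d were added). Over all genes, these fits called 347 of 26349, 107 of 18584, and from 69 of 18492 to 344 of 17497, against 140 of 17736 in the main fit. At 3 hr, the 7 calls ranged from 3 to 12 over single libraries left out: 12 if LTP replicate 2 was missing, 7 for LTP replicate 3, 5 for control replicate 3, and 3 for either control replicate 1 or 2 or LTP replicate 1. Kdm7a, Kmt2c and Kmt2e kept their 3 hr calls in all 16 alternatives, Kmt2a and Kmt2d lost theirs in 3, Kdm6b in 4 and Hdac4 in 7. Hdac4 lost its call also in the fits with GC content and length offsets, which kept all 6 libraries. Over all genes, the 1155 calls at 3 hr ranged from 228 to 2170 when single libraries were left out, and the cause was not tested. The replicate block for animal gave 1 call at 1 hr, 8 at 3 hr (Kmt2b added) and 0 for the interaction, and it ended no call of a member. Over all genes it gave 206, 1662 and 13 calls. The interaction stayed at 0 calls in all of its alternatives. Between controls, 5 members were called with GC content and length offsets in place of 13 (Hdac11 was not among the 13), 10 with 1 hr control replicate 2, and from 8 to 13 with single libraries left out (8 without 1 hr control replicate 3). Over all genes, 4679 of 18584 were called with the offsets and 4991 of 18240 with 1 hr control replicate 2. With single libraries left out, from 4212 of 19264 to 5894 of 18476 genes were called. With those offsets the control differences of Kdm4b and Ehmt2 were -0.001134 and -0.12, and the LTP time difference of Ehmt2 was -0.036, each of them reversed and not called. Between LTP slices, 11 members were called with the offsets in place of 16, where 5052 of 18584 genes were. With single libraries left out, from 14 to 18 members (35.9% to 46.2%) were called, and from 5473 of 18529 to 7500 of 18446 genes. Over the named genes, 1562 values stayed on their side of the threshold, 55 of them with a change of sign and not called, 105 kept their direction but lost the call, 9 gained it and 3 called values changed sign. All members lay above 3 counts in every library, and how far depth bears on the calls was not tested.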
